A study of Parasteatoda tepidariorum with 16 samples.

Results

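The genes g9727 and g9729 are a pair of near-adjacent gene models of the common house spider *Parasteatoda tepidariorum*, both described in the deposited annotation as "protein ABHD11-like". They were taken by these identifiers from all gene models of the count table, so that the pair is 2 of 27990 genes, and both are accounted for below. The pair was chosen from expression results of these same libraries, so its levels are given as a description with no test, and tests are given only for other genes. RNA was sequenced from approximately 10 to 100 cells taken by glass capillary from the germ disc, the cell layer that goes on to build the body of the spider embryo. The cells came from its central (c), intermediate (i) or peripheral (p) region in wild-type embryos of the Osaka isolate.

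The groups were stage-3 c cells (2 libraries), i cells (3 libraries) and p cells (3 libraries) all taken about 20 h after the eggs were laid. They were followed by stage-4 c and p cells (2 libraries each) at 28 to 29 h and by early stage-5 c and p cells (2 libraries each) at 31 to 32 h. The labels name 4 mothers. One gave the stage-3 c and p cells, one the stage-3 i cells, one all stage-4 cells and one all early stage-5 cells, so that stage and mother, and at stage 3 the i region and mother, cannot be told apart. Replicates within a stage therefore share a mother, and a p-value measures the spread between such libraries only.

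ABHD11 is an alpha/beta hydrolase fold protein. In human cells it is a mitochondrial protein that preserves the lipoylation, and with it the activity, of the 2-oxoglutarate dehydrogenase complex, an enzyme of the tricarboxylic acid (TCA) cycle. The role of the spider genes with this description is not known from the sources used here. An animal egg also carries transcripts made by the mother, many of which are removed as transcription of the embryo's own genome begins.

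Total counts on gene models ranged from 4566853 to 10500376 per library, being lowest at early stage 5, and 4511 to 10500 genes reached 1 CPM (counts scaled to the library total). A library in which a gene has no count still allows up to 3 counts, which corresponds to 0.286 to 0.657 CPM, for counting error only. The levels given below are CPM that also use TMM factors, edgeR's scaling between libraries. On that scale 3 counts correspond to group means of 0.403 to 0.746 CPM in the later groups, and the fold bounds use these. Of the c-region markers, g4238, g14287 and g16467 reached 3.26 CPM or more in all 6 c libraries and at most 1.28 CPM in all 10 i and p libraries. The study chose these genes as high in c cells of the same stage-3 libraries, so this is no independent check there. Of the periphery markers, Pt-hh (g4322) had 52.4, 63.0 and 0 CPM in stage-3 p cells and up to 65.0 CPM in i cells. At stage 4, Pt-hh and Pt-lab1 (g7954) were higher in both p than in both c libraries, while Pt-BarH1 (g8250) overlapped. The stage-4 p libraries differed for g26874 (*fuchi*, expressed in endoderm cells), with 37.5 CPM in the first and 512 CPM in the second. Some of the results below are also given without the second. Pt-opa (g12202) was planned here as a c marker from stage 4, though the paper does not name it as one. It was lower in the stage-4 c libraries (54.4 and 48.6 CPM) than in the p libraries (321 and 225 CPM). The same held at early stage 5 (33.8 and 5.27 CPM in c, 382 and 222 CPM in p cells).

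In the genome assembly Ptep_1.0, g9727 lies on the minus strand of scaffold 1062 from position 293368 to 300714 and g9729 on the same strand from 343158 to 352634. Between them, at 309940 to 337174, lies the gene model g9728, described as "protein ABHD11, transcript variant X2". The deposited values per kilobase imply counted lengths of 1162 bases for g9727 and 1173 bases for g9729, so that the pair differs little in the length used for scaling.

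Both genes were high at stage 3 and at or near 0 in every later library. The plot of the pair by stage and region shows this for each library.

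**Figure D1:**
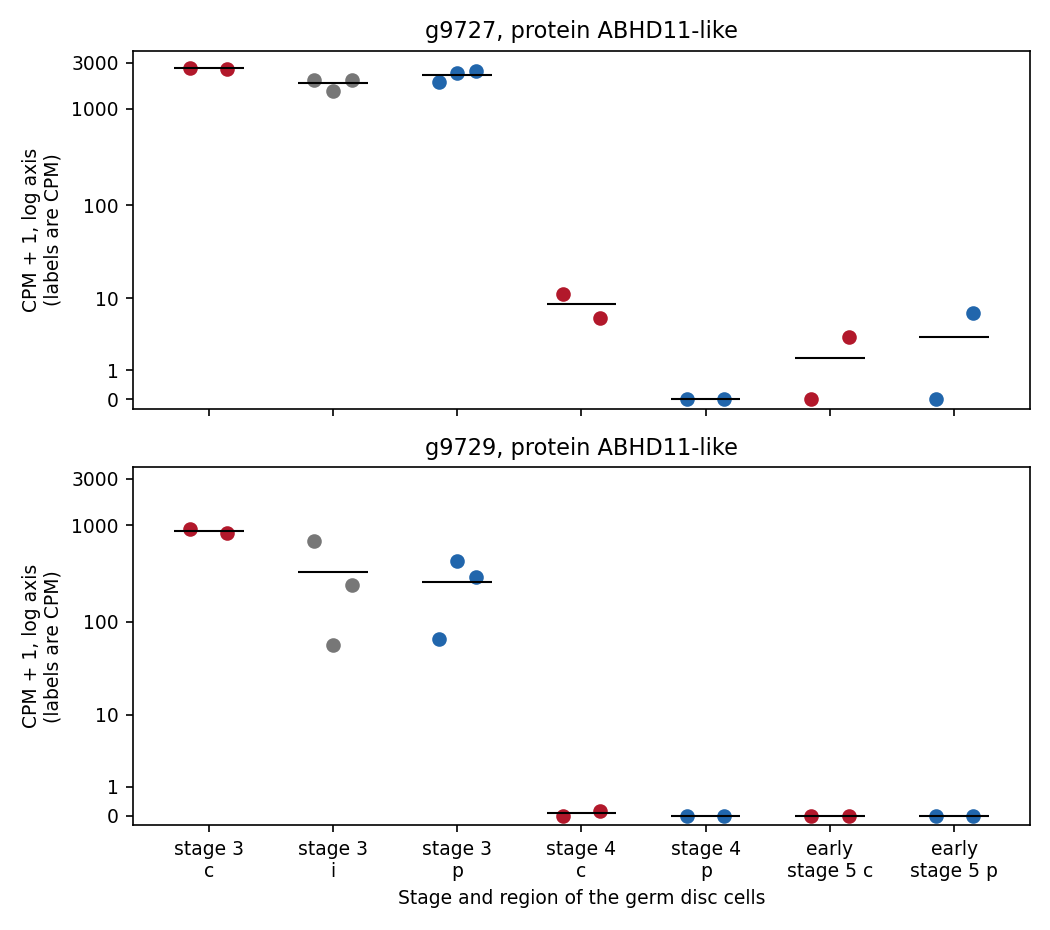
Levels of g9727 (top) and g9729 (bottom) in CPM on a log axis of CPM + 1, by stage and region. Points are the 16 libraries (c red, i grey, p blue), and bars are group means. All 8 stage-3 libraries of g9727 sit between 1535 and 2668 CPM and no later library exceeds 11.3 CPM, while g9729 is between 57.0 and 916 CPM at stage 3 and has 1 count in all later libraries together.

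For g9727, the normalised read counts at stage 3 were 2668 and 2561 CPM in c cells, 1992, 1535 and 1978 CPM in i cells and 1909, 2332 and 2475 CPM in p cells. The gene was thus high in every region, and the means were 2614 ± 75.7 (SD, n = 2) in c, 1835 ± 260 (SD, n = 3) in i and 2239 ± 294 (SD, n = 3) in p. Both c libraries lay above every i and p library, but the c mean was only 1.42 times that of i cells and 1.17 times that of p cells. With the authors' RPKM (reads scaled to gene length and library size), which use library sizes alone, the lower c library (2402) lay just under the highest p library (2406), so the c and p groups overlapped on that scale. The i and p groups overlapped on both scales.

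At stage 4, g9727 had 11.3 and 5.92 CPM in c cells, which correspond to 76 and 49 counts, and no count in both p libraries. At early stage 5 it had 0 and 3.35 CPM in c cells and 0 and 6.73 CPM in p cells, that is 14 and 35 counts in 1 library of each region. All 8 later libraries lay far below the stage-3 libraries. In c cells, the stage-4 mean of 8.59 ± 3.78 CPM (SD, n = 2) was 304-fold lower than that at stage 3, and in p cells stage 4 was at least 5048-fold lower, taking 3 counts per library as the floor. By early stage 5 the means were 1559-fold lower than at stage 3 in c cells and 666-fold lower in p cells. Ordered by mean, the groups ran from stage-3 c, p and i to stage-4 c, then early stage-5 p (3.36 ± 4.76 CPM, SD, n = 2) and c (1.68 ± 2.37 CPM, SD, n = 2), and last stage-4 p. Among the later groups, stage-4 c lay above stage-4 p in both libraries, early stage-5 c did not overlap with stage-4 c, and the remaining neighbours overlapped. No share of all genes with such separations is given, and with n = 2 per group nothing is read from them.

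For g9729, the stage-3 levels were 916 and 822 CPM in c cells, 684, 57.0 and 239 CPM in i cells and 65.3, 421 and 290 CPM in p cells. The c libraries were close to each other, while the i and p libraries were spread over a wide range, with the second i and the first p library lowest. The means were 869 ± 66.6 (SD, n = 2) in c, 327 ± 323 (SD, n = 3) in i and 258 ± 180 (SD, n = 3) in p. The c mean was 3.36 times the p mean and 2.66 times the i mean, and neither group overlapped with c. The i and p groups overlapped, and the first i library lay above every p library.

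The separation of both genes, with the 2 c libraries above all i and p libraries, was met by 620 of the 10860 genes examined at stage 3 (5.71%), and for c against p alone by 11.4% of genes. These shares are given for scale, and since the pair was chosen on such levels nothing is read from them. The fitted log2 fold changes in comparison I (c against i and p cells) were 0.35 for g9727 and 1.59 for g9729. In comparison II (p against c and i cells) they were 0.04 and -1.12, and in comparison III (i against c and p cells) -0.36 and -0.61. The comparisons share libraries.

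At stage 4 a single count of g9729 was found, in the second c library (0.12 CPM), and none in the first c library or either p library. At early stage 5 all 4 libraries had no count. From stage 3 to stage 4 the level in c cells, here from the counts pooled over the libraries of each group, was 13127-fold lower, with a 95% interval (exact Clopper-Pearson, counting error only) from 2356-fold to 518503-fold because the lower value rests on 1 count. Without the first stage-4 c library it was 7231-fold lower, and without the second, which holds the count, at least 1954-fold. The corresponding difference in p cells was at least 583-fold. At early stage 5 the level was at least 1164-fold lower than at stage 3 in c cells and at least 426-fold lower in p cells. The bounds differ between regions partly by construction, since p cells started from a lower level.

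A complete separation of the 8 stage-3 libraries above the 8 later ones was met by 217 of 13511 genes (1.61%) that reached 1 CPM in any library, and by 169 of the 1845 genes with a stage-3 mean of at least 100 CPM (9.16%). A later mean under 1% of the stage-3 mean was met by 23 of these 1845 genes (1.25%), among them both members of the pair. Since the whole stage-4 and early stage-5 material came from other mothers than the stage-3 material, and since fewer transcripts per cell and fewer cells with the transcript cannot be told apart in such pooled cells, the values describe the libraries only.

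The pair differed in level and in evenness. Per length, g9727 had 2463 ± 87.1 RPKM (SD, n = 2) in stage-3 c cells, where it ranked 10 of 9417 genes with a value above 0, and g9729 had 811 ± 67.4 RPKM (SD, n = 2) and ranked 92. In p cells the ranks were 14 and 384 of 9195 genes, and in i cells 20 and 273 of 8682 genes. In counts, g9729 amounted to 34.3% and 32.1% of g9727 in the c libraries, to 34.4%, 3.71% and 12.1% in the i libraries and to 3.42%, 18.0% and 11.7% in the p libraries. The share was therefore similar in both c libraries and the first i library, and ranged over 10.0 times (per length) among all 8. Over the stage-3 libraries the coefficient of variation of the CPM was 17.8% for g9727 and 76.5% for g9729.

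The levels of other ABHD11 genes in the same stage-3 libraries help to place this spread. In the second i and first p libraries, where g9729 was lowest, g23929 ("protein ABHD11-like, transcript variant X1") was also at its lowest, with 204 and 118 CPM against 483 to 1000 CPM in the other 6. In the first p library g9728 had 0.62 CPM, that is 7 counts, against 233 to 758 CPM elsewhere, and g9725 had no count. The abundant genes g9727, g3607 and g25958 were not reduced to this extent, with 1909, 1415 and 1932 CPM in the first p library. In the second i library they had 1535, 1029 and 1155 CPM. For g9727 the values in the second i and first p libraries were also its lowest at stage 3. The total count of the first p library, 10500376, was the highest of all, and the second i library had 7754327 counts. The part of the library in these low values was not tested.

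**Figure D2:**
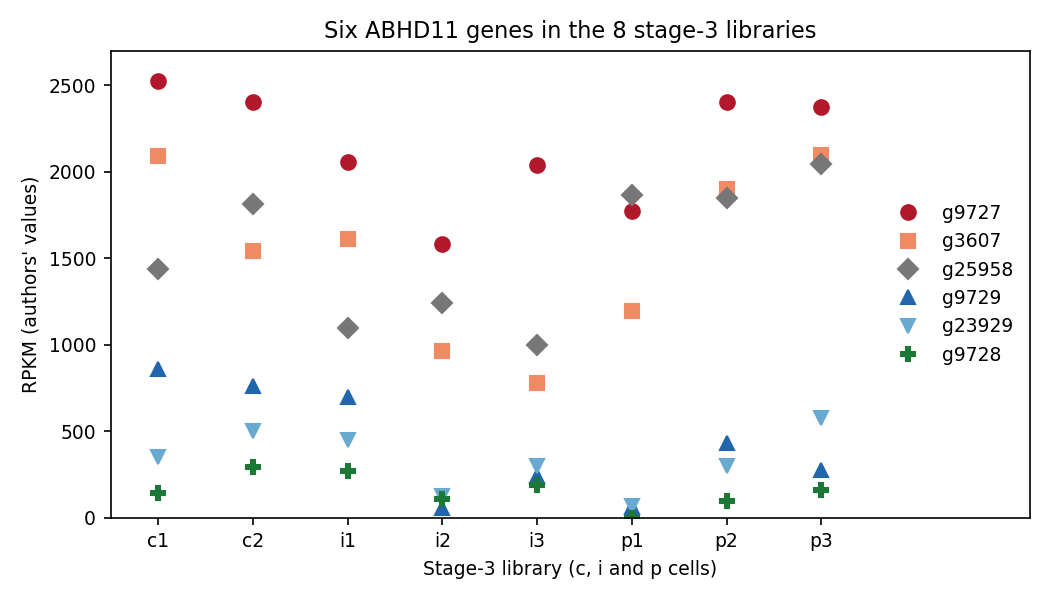
Levels per length (the authors' RPKM, linear axis) of 6 ABHD11 genes in the 8 stage-3 libraries. Each point is 1 library: g9727, g3607 and g25958 have 779 RPKM or more in every library, whereas g9729 ranges from 58.2 to 859 RPKM and is lowest in i2 and p1, where g23929 is lowest too.

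The pair belongs to a large set of models with the same kind of description. In all, 49 gene models are described as ABHD11 or ABHD11-like, of which 27 had no count in any library and 19, the pair included, reached 1 CPM in at least 1 library. Summed over the counts of the 49 models, the level was 4351 to 8868 CPM at stage 3 (median 7090 CPM, 8 libraries), 985 to 1606 CPM at stage 4 and 393 to 531 CPM at early stage 5. The pair made up 31.2% to 44.0% of this sum at stage 3 and at most 0.70% at stage 4 and 1.27% at early stage 5. A different gene, g25958 ("protein ABHD11"), made up 14.9% to 35.5% of the sum at stage 3 and 89.4% or more in every later library.

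**Figure D3:**
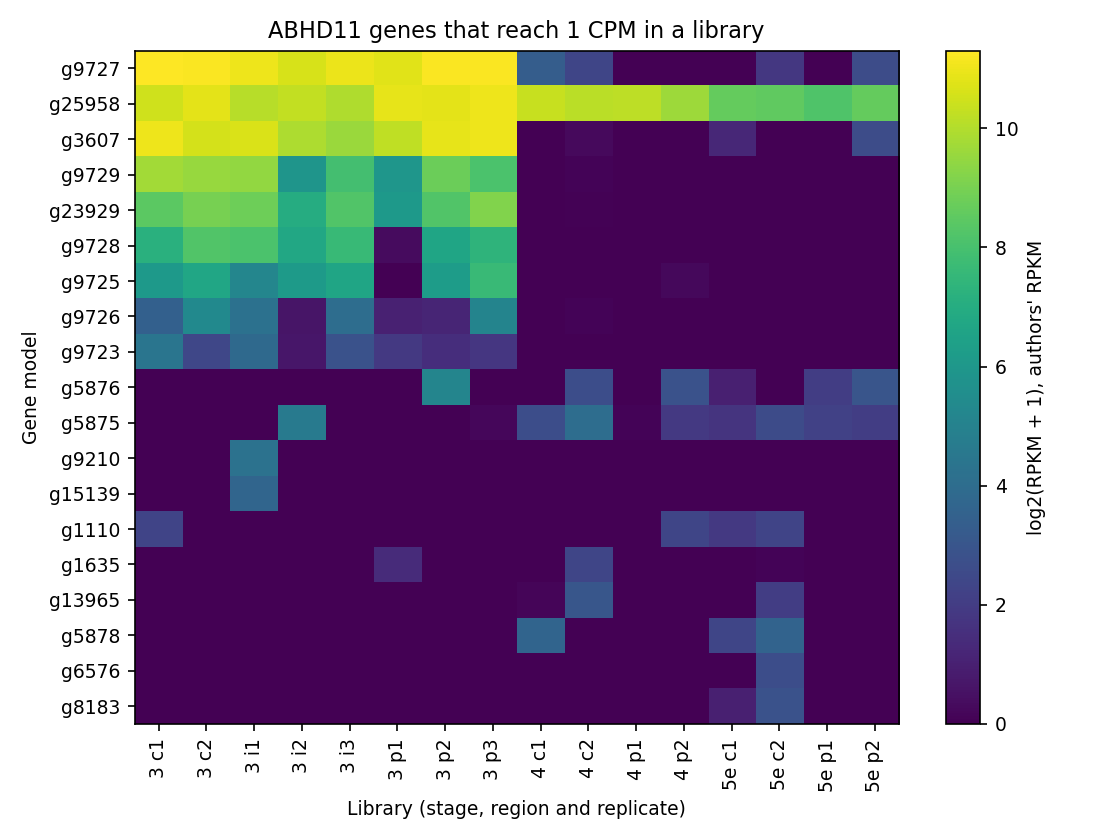
Heat map of the 19 ABHD11 genes that reach 1 CPM in a library, as log2(RPKM + 1), in the 16 libraries named by stage, region and replicate, ordered by stage-3 mean. The upper rows are high in the 8 stage-3 libraries and dark later, except g25958, which has 295 RPKM or more in every library.

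Across stages, 8 of the 49 models had a stage-3 mean of 10 CPM or more, and 7 of these, the pair included, had a later mean under 5 CPM. From stage 3 to stage 4, edgeR's quasi-likelihood test across c and p cells called 4 of the 15 other ABHD11 genes tested as lower and none as higher. Of all 13306 genes tested, 9.72% were called, made up of 3.92% lower and 5.81% higher. The genes g23929, g9728, g9725, g9726 and g9723 passed the 1 CPM filter through stage-3 libraries only. They had at most 0.25 CPM in any later library and could come out only as lower. Neither the direction nor the significance of their calls is therefore read as a result, and no p-value is given for them. They do enter the counts and the median given here. Of the 4 genes called, only g3607 also passed the filter through a later library. At an unadjusted p under 0.05, 6 of the 15 passed against 20.6% of all genes, and DESeq2 called 6 against 14.8%. The median log2 fold change of the 15 was -0.47 against -0.08 over all genes. The fitted fold changes of genes with no count at stage 4 depend on the prior count, so the levels are given beside them. The SE printed with a fold change is derived from it and the F statistic of the test, so it depends on the prior count too. The gene g3607 ("protein ABHD11-like") fell from 2112 ± 437 CPM (SD, n = 2) in c and 1945 ± 496 CPM (SD, n = 3) in p cells to 3 counts in c cells and none in p cells (fitted log2 fold change -14.01, SE 0.80, adjusted p = 1.56e-64). Its p level was at least 4385-fold lower. Per length, its stage-3 c level was 1816 RPKM, against 2463 RPKM for g9727. The gene g23929 fell from 758 and 534 CPM in c and p cells to 1 count in c cells and none in p cells (-13.63). The gene between the pair, g9728, fell from 563 and 211 CPM to no count (-14.60). This was at least 1395-fold in c and at least 476-fold in p cells. The fourth, g9725, fell from 95.3 and 100 CPM to 2 counts, both in p cells (-10.13). Both counts were in the second stage-4 p library, and without it the fitted log2 fold change of g9725 was -12.55. For g9726 (-8.57) and g9723 (-9.22) the threshold was not passed, although both had at most 1 count at stage 4. Their stage-3 means were 15.3 and 7.50 CPM. Without the second stage-4 p library, or without the first stage-3 p library, the number of other ABHD11 genes called stayed at 4.

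The gene g25958 had a different course. It had 1457 and 1859 CPM in stage-3 c cells and 1932, 1719 and 2044 CPM in stage-3 p cells, against 1567 and 1517 CPM in c and 1560 and 964 CPM in p cells at stage 4. From stage 3 to stage 4 its log2 fold change was -0.30 (SE 0.24, adjusted p = 0.509). With library sizes alone in place of TMM normalization the value was -0.74 and the threshold was passed (adjusted p = 0.00878). From stage 4 to early stage 5 it fell to 510, 467, 380 and 497 CPM (-1.65, SE 0.27, adjusted p = 6.02e-07), and it was the only 1 of 15 other ABHD11 genes called (1.08% of all genes; 1 of 15 and 5.3% at an unadjusted p under 0.05; 1 of 15 and 5.17% by DESeq2). Apart from g25958, the ABHD11 models were low after stage 3. The highest later mean among them was that of g5875, at 0.17 to 37.8 CPM in the 8 later libraries, and 13 of the models with a count in any library were under 10 CPM on average in both periods.

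Between regions, none of the other ABHD11 genes passed the threshold of edgeR's quasi-likelihood test. In comparison I, 0 of 13 passed against 0.396% of all genes, 1 of 13 had an unadjusted p under 0.05 (5.28% of all genes) and DESeq2 called 0 (5.55%). In comparison II, 0 of 13 passed (0.101% of all genes), 2 had an unadjusted p under 0.05 (5.42%) and DESeq2 called 0 (5.12%). In comparison III the numbers were 0 of 13 (0.184%), 2 (4.93%) and 1 (6.41%). For stage-3 c against p cells they were 0 of 10 (0.245%), 1 (3.56%) and 0 (9.14%). For c against p cells they were 0 of 7 (0.486%), 0 (4.42%) and 0 (2.97%) at stage 4, and 0 of 9 (0.812%), 1 (8.19%) and 0 (3.48%) at early stage 5. In the test of region by stage they were 0 of 15 (0.0902%), 0 (2.55%) and 0 (0.782%). The gene called by DESeq2 in comparison III was g25958, whose i libraries (1019, 1155 and 930 CPM) all lay below the c and p libraries. The i cells came from another mother, as stated above. Without the third p library, g9728 passed the threshold as lower in p cells (comparison II, log2 fold change -2.08, adjusted p = 0.00745), and as higher in c than in p cells (2.29, adjusted p = 0.0119). In comparison III, g3607 passed as lower in i cells without the first i library (-1.10, adjusted p = 0.00725) or without the first p library (-0.83, adjusted p = 0.0394).

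Scaffold 1062 holds 14 gene models, of which 7 are described as ABHD11. These are g9717, g9723, g9725, g9726, g9727, g9728 and g9729, and 6 of them had counts at stage 3. Per length, the stage-3 means over 8 libraries were 6.45 RPKM for g9723, 81.5 RPKM for g9725, 14.9 RPKM for g9726, 2145 RPKM for g9727, 160 RPKM for g9728 and 424 RPKM for g9729, while g9717 had no count in any of the 16 libraries. The level per length thus varied over a wide range between neighbouring models. Among the other models, g9718 (uncharacterized) fell from 1333 to 2332 CPM in the 8 stage-3 libraries to 9.70 to 83.7 CPM in the 4 stage-4 libraries (log2 fold change -5.62, SE 0.39, adjusted p = 1.02e-43). The uncharacterized gene g9721 had -0.78 (SE 0.76, adjusted p = 0.584), and g9730, the model next to g9729 ("metabotropic glutamate receptor 1-like"), had no count in any library.

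**Figure D4:**
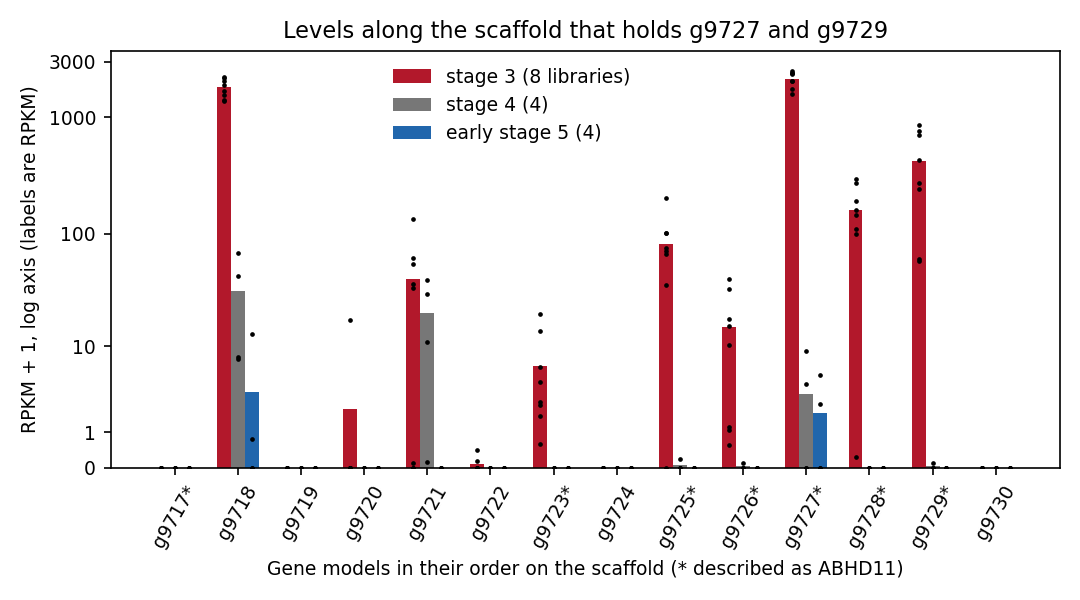
Mean of the authors' RPKM (bars, log axis of RPKM + 1) at stage 3, stage 4 and early stage 5 for the 14 gene models of scaffold 1062 in their order on the scaffold, with each library as a dot; an asterisk marks ABHD11 models. The highest stage-3 bars are g9727 and the uncharacterized g9718, and the bars of g9723 to g9729 are at or near 0 after stage 3.

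In the newer assembly CAS_Ptep_4.0 (RefSeq), 45 of the 49 ABHD11 models were matched by symbol and 13 of them lie on the chromosome that holds g9729. Used only for gene order, it places g9727 as the gene 2 from g9729, followed by g9726, g9725 and g9723 at 3, 4 and 5 genes from g9729. The ABHD11 models g23022 and g9717, which had no count in any library, lie 6 and 9 genes from g9729. The gene g3607, which is on another scaffold of Ptep_1.0, lies 11 genes from g9729, and g25958 lies 37 genes from it. The gene g23929 is 320 genes away on the other side of g9729. No match was obtained for g9728.

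The profiles of the pair over the 16 libraries were alike, with a Pearson r of 0.95 on log2(CPM + 1). This is a description over libraries of which 8 are near 0 for both genes, and without the stage-3 libraries r was 0.35. Among 6931 genes with a mean of at least 10 CPM, the 5 most like g9727 were g27978 ("myotubularin-related protein 14", r = 0.97), g3607 (0.97), g23277 (no description, 0.97), g23929 (0.97) and g13445 (uncharacterized, 0.97). The 5 most like g9729 were g23929 (0.99), g27978 (0.99), g18792 (no description, 0.99), g21327 ("ATP-binding cassette sub-family G member 8-like", 0.98) and g15668 (no description, 0.97). For each member the other ranked 18. Which genes stood in these lists depended on the scale: on the 7 group means 0 of the 5 named for g9727 and 1 of the 5 for g9729 were kept.

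Genes connected to the known role of human ABHD11 were examined as lists. The lipoate list holds 17 models found by description, of enzymes that carry, attach or use lipoate, and also takes in a peroxisomal carnitine O-octanoyltransferase (g7073) by its name. From stage 3 to stage 4, 1 of 17 rose and none fell, with a median log2 fold change of 0.27 against -0.08 over all genes. The 1 gene was g16375, the mitochondrial glycine cleavage system H protein, which carries lipoate (3.02, SE 0.83, adjusted p = 0.00493). The TCA cycle list, also found by description, takes in ATP-citrate synthase-like models (g17028 and g18072) and a succinate dehydrogenase assembly factor (g10343). It also holds cytoplasmic forms of aconitate hydratase, isocitrate dehydrogenase and malate dehydrogenase. Of 27 TCA cycle models tested, 3 rose and none fell (median -0.07), namely g11416 ("probable citrate synthase 2, mitochondrial", 1.83, SE 0.45, adjusted p = 0.00110), and the aconitate hydratases g15635 (0.93, SE 0.32, adjusted p = 0.0412) and g22972 (5.96, SE 1.71, adjusted p = 0.00811). Of 13 models of other ABHD proteins tested, 0 passed the threshold of edgeR's quasi-likelihood test (1 at an unadjusted p under 0.05, 0 by DESeq2), with a median of 0.42. The shares called were 1 of 17, 3 of 27 and 0 of 13 against 9.72% of all genes.

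**Figure D5:**
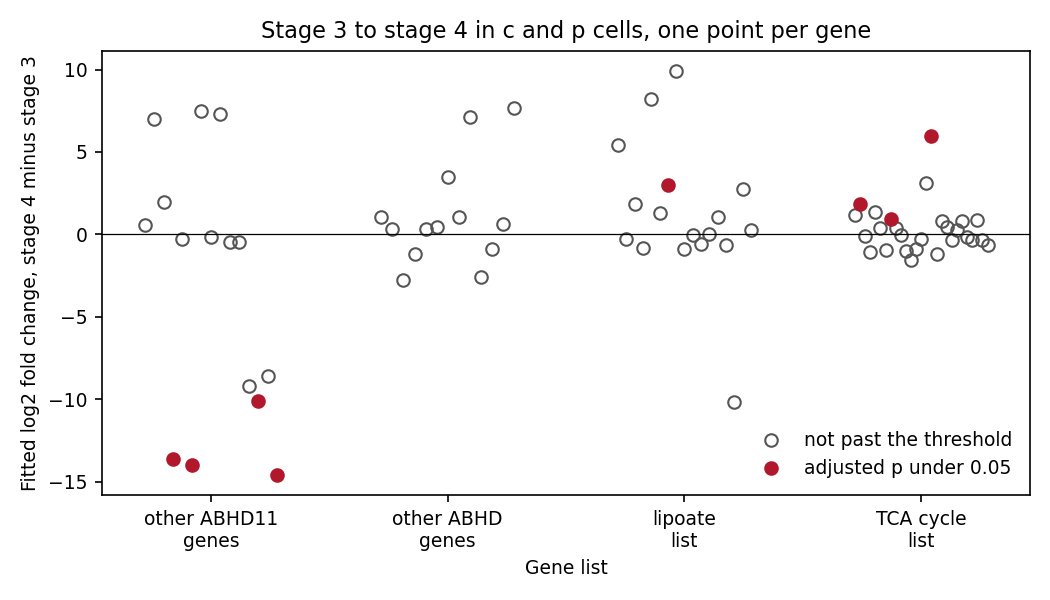
Fitted log2 fold change from stage 3 to stage 4 (stage 4 minus stage 3, c and p cells together) of the genes tested in 4 lists, 1 point per gene; filled points have an adjusted p under 0.05. The 4 filled points of the other ABHD11 genes lie at -10.13 or below, and the filled points of the lipoate and TCA cycle lists lie above 0. Of the former, g23929, g9728 and g9725 could come out only as lower.

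From stage 4 to early stage 5, edgeR called 0 of 17 lipoate genes, 0 of 27 TCA cycle genes and 0 of 13 other ABHD genes, against 1.08% of all genes. At an unadjusted p under 0.05 the numbers were 0, 2 and 1 (5.3% of all genes), and by DESeq2 0, 1 and 0 (5.17%). Between regions, edgeR called 1 gene of these lists. It was g25822, described as an uncharacterized abhydrolase domain-containing protein and 1 of 13 other ABHD genes tested at early stage 5 (0.812% of all genes called), which was higher in c than in p cells (2.83, SE 0.41, adjusted p = 0.0123).

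The lipoate and TCA cycle lists gave no call between regions at any stage by edgeR's test. In comparison I, 0 of 15 lipoate and 2 of 27 TCA cycle genes had an unadjusted p under 0.05 (5.28% of all genes), and DESeq2 called 4 and 0 (5.55%). In comparison II, these numbers were 1 of 15 and 3 of 27 (5.42%), and 1 and 2 by DESeq2 (5.12%). In comparison III they were 2 of 15 and 1 of 27 (4.93%), and 3 and 2 by DESeq2 (6.41%). For stage-3 c against p cells they were 0 of 14 and 1 of 27 (3.56%), and 2 and 0 by DESeq2 (9.14%). At stage 4 they were 0 of 16 and 3 of 27 (4.42%), and 0 and 0 by DESeq2 (2.97%). At early stage 5 they were 2 of 17 and 5 of 27 (8.19%), and 0 and 1 by DESeq2 (3.48%).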

How the data were processed

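The authors isolated poly(A) RNA with Dynabeads, built libraries with the SMARTer Stranded kit and sequenced single-end reads. Reads were trimmed in CLC software and mapped with BLAT to Ptep_1.0. A uniqueness filter discarded reads that map about equally well to several places, so near-identical ABHD11 paralogs can be undercounted. The deposited counts per aug3.1 gene model came from htseq-count (HTSeq 0.5.4p5 in the submitters' processing notes), and the deposited RPKM are scaled by library size and length. The table has 5 rows that name no gene and hold 8.18% to 8.85% of reads in the 4 early stage-5 libraries. They were left out.

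Counts were tested with edgeR 4.0.16 (TMM, glmQLFit with legacy = FALSE) in R 4.3.3, keeping genes that reached 1 CPM in 1 or more libraries fitted, with Benjamini-Hochberg adjustment over all genes and a threshold of 0.05. CPM in the text use TMM factors over all 16 libraries. Each SE is the absolute log2 fold change divided by the square root of the quasi-likelihood F statistic, and is not a standard error from the fit itself. DESeq2 1.42.0 was an alternative. Scripts were tested on simulated data. Genes are named by rule: the pair, other ABHD11 genes reaching 1 CPM, models on the same scaffold, the 5 most similar profiles, and list genes past the threshold. The members and lists were chosen with earlier results of these data known. Replicate numbers were tested as a block, and same-numbered libraries did not deviate together (correlations -0.0279 to 0.0390).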

Additional observations from a re-analysis of the deposited data

Results flagged for a closer look

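In the 4 stage-4 libraries, g9729 had 0.12 CPM in the second c library and no count in the other 3, so that 1 library stood apart from the rest by Dixon's criterion for 4 values. The value is a single count. A set of 4 libraries with a count in only 1 of them is always marked by this criterion, so nothing is read from the mark. No other set of libraries examined for g9727 or g9729 was marked.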

How the results depend on the processing

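The stage-4 calls of g3607, g23929, g9728 and g9725 held in all 20 alternatives. Those of g23929, g9728 and g9725 could only be lower, as stated above, so nothing is read from their holding. The number of other ABHD11 genes called stayed at 4 over the libraries left out in turn and at 1 from stage 4 to early stage 5. It was 0 to 1 in comparisons II and III and for stage-3 c against p cells. From stage 3 to stage 4 DESeq2 called 6, the 4 and also g9723 (-8.05) and, as higher, g5875. In this fit g9723 passed the filter through stage-3 libraries only and g5875 through later libraries only, so neither direction is read as a result. The highest level of g5875, 40.4 CPM, was in the second stage-3 i library, which this fit leaves out. The legacy form of edgeR's test, added after seeing the data, called 2 in comparison III (g25958 and g3607), 2 from stage 4 to early stage 5 (with g3607, 4.29, adjusted p = 2.66e-14) and 1 by stage and region (g3607), and DESeq2 called 1 in comparison III. At early stage 5, g3607 had 8 counts in the first c library, 39 in the second p library and none in the others. At stage 4 it had 3 counts in all, and the main test did not call it between these stages. The fold by which g9727 was lower at stage 4 was 232 to 442 in c cells, the highest without the first c library, and at least 4317 to 6076 in p cells over the libraries left out. It was at least 5948 with DESeq2 size factors and 6665 with library sizes alone. For g9729 it was 1954 to 13759 in c cells, with 7231 without the first stage-4 c library and at least 1954 without the second, which holds the single count, and 16679 with library sizes alone. In p cells it was at least 400 to 801. The fitted log2 fold change of g9729 was -14.81 to -12.95, and that of g9727 -10.02 to -8.69. In stage 3, g9729 had 1.36 to 2.03 in comparison I, -1.67 to -0.66 in II (the smallest without the first p library), -1.82 to -0.09 in III (the smallest without the second i library, the largest without the first) and 1.32 to 2.31 for c against p cells. Library sizes alone moved the median log2 fold change of all genes from stage 3 to stage 4 from -0.08 to -0.35.

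With the replicate number as a block, the count of calls was 4 from stage 3 to stage 4, 1 from stage 4 to early stage 5 and 0 elsewhere, as without it. The labels do not say that a number marks shared embryos, and the numbers did not pair the libraries. No fold of the pair was recomputed for c against p cells at stage 4 or early stage 5, or from stage 4 on. In these libraries g9729 is at or near the floor, and g9727 has at most 76 counts in a library. Depth limits these libraries to about 3 counts, so the differences of the pair in p cells from stage 3 to stage 4 are lower bounds for counting error only. Loss of a transcript while a library is made from few cells is not covered. Among stage-3 p cells, g9725 had 0 counts in the first library and 2633 in the third, and the reason was not tested.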
